A study of Rattus norvegicus with 6 samples.

Results

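Cyclin G2, the D-type cyclins, their kinases and the inhibitors of those kinases were followed in GH4C1 cells that carried a mutant pituitary transcription factor. The members are 10 genes: Ccng2, Ccnd1, Ccnd2, Ccnd3, Cdk4, Cdk6, Cdkn1b, Cdkn1c, Cdkn2c and Rb1. They were measured by 14 of the array's probe sets, among 14217 genes that had at least 1 probe set annotated to a single symbol. The genes were chosen by name, but with the log2 signals of the same 2 groups already known, so their values in this comparison are a description and carry no test here. The intervals given with them are those of the group difference in the limma fit described below, and are a description too. Their width draws on the scatter of other probe sets as well as on that between a probe set's own arrays.

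GH4C1 is a rat pituitary tumour line of the cells that make growth hormone and prolactin. In the first group 3 cultures carried mutant POU1F1(R271W), which the series title calls dominant negative, on a lentiviral vector with an EGFP reporter. In the second group 3 control cultures carried, by the design text, the same kind of vector with EGFP alone. Both vectors used the PGK promoter, which is active in most cell types, both were added at a multiplicity of infection of 5, and RNA was taken after 4 days of growth. The share of cells that took up a vector is not given in the sources used here, and all 6 cultures came from the 1 cell line. RNA of each culture went onto its own Affymetrix rat array, and a value is a MAS5 signal, a summary of the brightness of a probe set on a linear scale. The labels call the 3 cultures of a group biological replicates without saying whether they were transduced separately. A p-value thus sets a difference against a spread that comes from such cultures.

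Progress from G1 into S phase depends on the retinoblastoma protein RB, which holds E2F transcription factors in check. D-type cyclins activate CDK4 and CDK6, which phosphorylate RB and release E2F, while inhibitors of the INK4 family bind these kinases and inhibitors of the CIP/KIP family act on cyclin-bound kinases. Cyclin G2 is an unconventional cyclin whose mRNA is raised in quiescent and growth-arrested cells and which is a known target of FOXO factors. The pathway is known to matter in the pituitary, since mice that lack p18 (Cdkn2c) or p27 (Cdkn1b), or carry 1 intact copy of Rb1, develop pituitary tumours.

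The labelled cell type was borne out by its markers: the signals of Prl, Gh1 and Pou1f1 together summed to between 10491 and 12372 in R271W cells and between 12635 and 13702 in controls. The 3 did not move alike. Prl was lower, at 3175 ± 171 in R271W cells and 4332 ± 188 in controls (SD, n = 3 each, limma adjusted p = 0.00048), while Gh1 had a log2 change of -0.03 with overlapping groups. Pou1f1 was lower too, at 1836 ± 86.2 in R271W cells and 2301 ± 90.1 in controls (SD, n = 3 each, limma adjusted p = 0.00486). Whether its probe sets also read the transgene is not given in the sources used here, so Pou1f1 does not check which cultures carried the mutant. The defining hormone markers of corticotrophs and thyrotrophs, Pomc and Tshb, lay below the signal filter described next, as did the endothelial, folliculostellate and leukocyte markers, and 0 of 2 tested gonadotroph markers were called. Of 4 fibroblast markers, Col1a1, Col1a2 and Pdgfra lay below it and Dcn was lower in R271W cells, and the summed signal of the 4 was 1180 to 1260 in R271W cells and 2708 to 2884 in controls. Median array signals were 25.5 to 26.9 on R271W arrays and 22.4 to 22.9 on control arrays, the log2 signal of the hybridisation spikes averaged 0.23 higher on R271W arrays, and control probes for beta-actin gave a 3'/5' ratio of 1.86 to 2.06 on R271W arrays and 1.81 to 1.83 on control arrays. These differences ran alongside every value below, and their part in those values was not tested.

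Probe sets were tested when their mean log2 signal over the 6 arrays reached the 40th percentile, a signal of 11.2, and a probe set passed when its limma p-value, adjusted over all 18625 tested, was under 0.05. Of the 14 member probe sets 6 reached the filter, for 5 of the 10 genes, and 8 did not. In that fit 1 of the 6 was called higher in R271W cells and 1 lower, which is part of the description, since the members were chosen with this contrast known. Over all tested probe sets, 8.57% were called higher and 7.22% lower, or 9.87% and 8.98% of 10143 genes read by their brightest probe set. The 3 R271W arrays lay above all controls for 1 of the 6 and below them for 1, against 19.7% and 14.2% of all tested probe sets. The median log2 change was 0.25 over the 6 and 0.07 over all tested probe sets. Cdkn2c enters the first median with both of its probe sets, at -0.50 and 0.39. Centring each array on its median lowered every log2 change by about the same amount and moved the median of all tested to -0.13. That also moved the calls, which were 1596 higher and 1344 lower with the deposited scaling and 730 higher and 3132 lower after median centring, and 1124 higher and 1923 lower after centring on the 75th percentile.

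**Figure D1:**
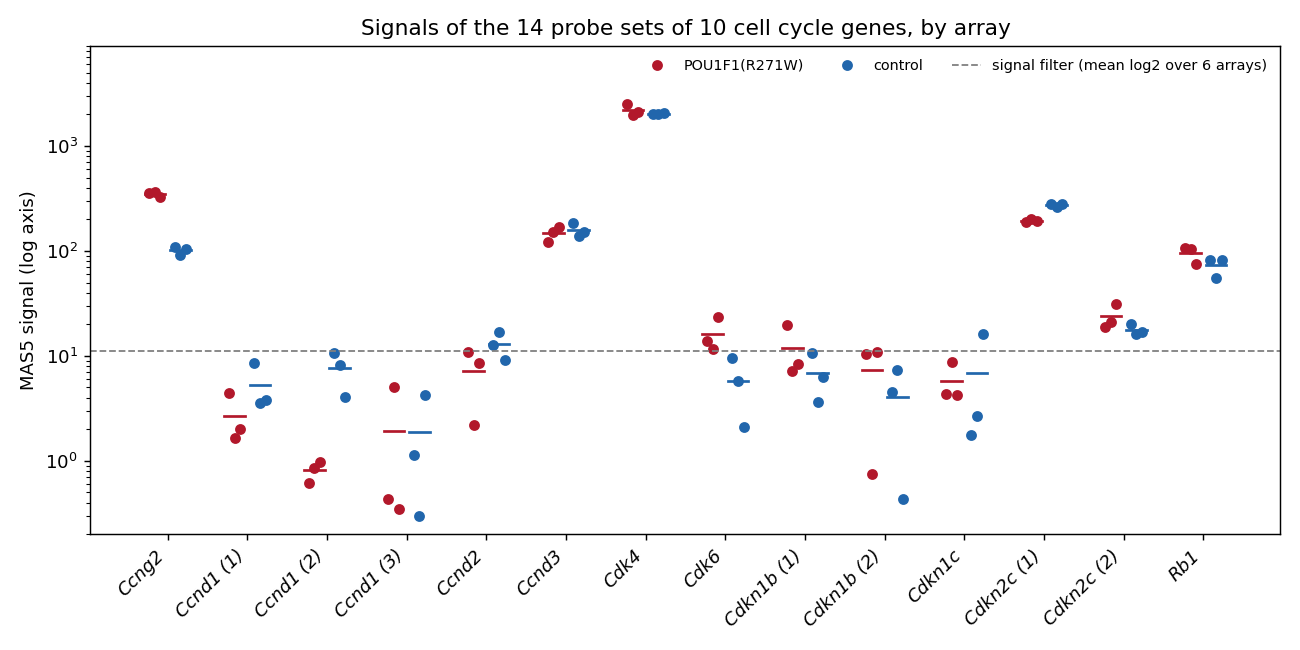
MAS5 signal (log axis) of each of the 14 probe sets, with 1 point per array, R271W cultures in red to the left of control cultures in blue, a bar at each group's arithmetic mean and a dashed line at the signal filter of 11.2. Numbers in brackets separate probe sets of 1 gene, brightest first. Ccng2 and the brighter Cdkn2c probe set are the tested ones whose groups do not overlap, and all probe sets of Ccnd1, Ccnd2, Cdk6, Cdkn1b and Cdkn1c scatter around or below the filter.

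The transcript that rose was that of Ccng2. Its only probe set (1371953_at) read 360.5, 360.9 and 329.9 in the R271W cultures, against 109, 91.4 and 105 in the control cultures. Every R271W culture thus read more than every control culture, and the replicates of each group lay close together, with a coefficient of variation of 5.07% in R271W cells and 9.26% in controls. The means were 350.4 ± 17.8 in R271W cells and 102 ± 9.46 in controls (SD, n = 3 each), a 3.44-fold difference. The log2 change was 1.78 with a 95% confidence interval of 1.53 to 2.03. In RNA from whole cultures, a change in the share of cells that express a gene and a change in the RNA per cell cannot be told apart. Among all tested probe sets, 99.5% had a lower log2 change than Ccng2. The change lay between 1.58, after median centring, and 1.83 over 17 other settings.

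The region upstream of Ccng2 is shown because this gene had the largest log2 change among the 6 tested member probe sets. It holds the 250 bases before the gene's start in the RefSeq annotation of GRCr8, on the minus strand of chr14:15097191-15097440, read 5′ to 3′. Capitals would mark matches, on either strand, to GTAAACA for FOXO factors, TATNCAT for POU1F1, CACGTG for E-box factors such as MYC, or TTTCCCGC or TTTGGCGC for E2F factors.
Ccng2: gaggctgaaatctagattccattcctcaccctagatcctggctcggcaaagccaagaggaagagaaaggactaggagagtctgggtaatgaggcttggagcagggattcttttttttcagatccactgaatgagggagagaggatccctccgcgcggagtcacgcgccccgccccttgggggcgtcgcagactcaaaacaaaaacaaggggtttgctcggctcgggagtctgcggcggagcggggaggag
No capitals occur, so none of these letters stand in this window. Of 33469 rat promoters cut to the same length, 3.21% held the FOXO letters, 8.73% the POU1F1 letters, 5.59% the E-box and 1.21% either E2F form.

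Ccng2 was next compared with all other genes by the shape of its signals. Likeness was the root mean square difference of log2 signals, each centred on its own mean over the 6 arrays, among 9804 tested probe sets with a mean signal of at least 50. The nearest gene was Hspb6, which encodes a small heat shock protein, at a distance of 0.096. It read 281, 279 and 249 in R271W cultures and 97.1, 75.1 and 75.9 in controls. The next were Krt10, an epidermal keratin gene, at 0.133, Tppp3, a tubulin-binding protein gene, at 0.167, Cxcr4, a chemokine receptor gene, at 0.169, and Hepacam2, an adhesion molecule gene of the immunoglobulin family, at 0.195. All 5 share with Ccng2 a step between the groups, with log2 changes of 1.54 (Cxcr4) to 1.94 (Hepacam2), and the measure selects genes for such a step.

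**Figure D2:**
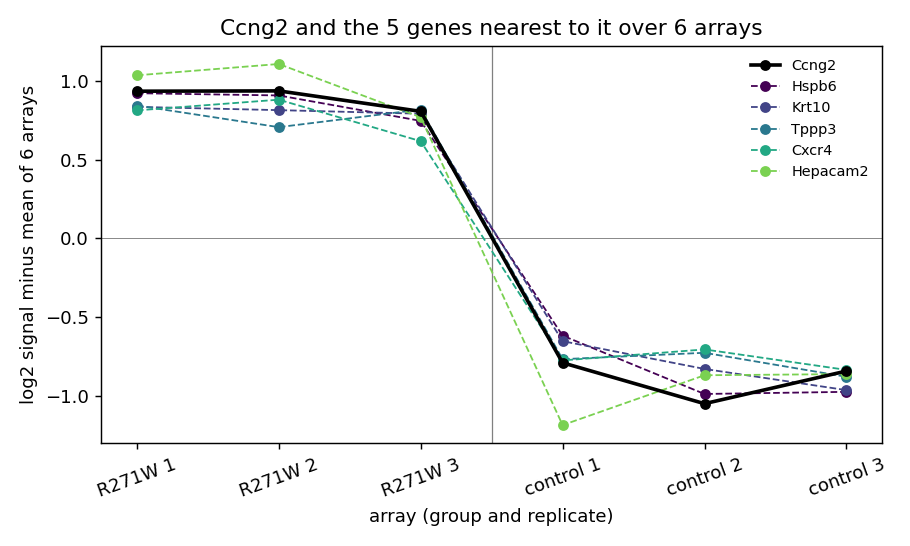
Log2 signal minus the gene's own mean over 6 arrays, for Ccng2 (black, solid) and the 5 genes nearest to it (coloured, dashed), by array. All 6 genes sit above their mean on the 3 R271W arrays and below it on the 3 control arrays.

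Of the D-type cyclins, which pair with CDK4 and CDK6, Ccnd3 was the one that reached the filter. It read 123, 152 and 168 in R271W cultures, against 184, 139.5 and 152 in control cultures. The groups overlapped over most of their range. The means were 148 ± 22.9 in R271W cells and 159 ± 22.8 in controls (SD, n = 3 each), with a log2 change of -0.11 (interval -0.43 to 0.22). Its sign turned to 0.02 without R271W replicate 1 and to 0.01 without control replicate 1.

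The 3 probe sets of Ccnd1, the gene of cyclin D1, were dim in both groups. The brightest (1371643_at) read 4.41, 1.64 and 1.99 in R271W cultures, against 8.54, 3.59 and 3.82 in controls, with overlap. The next (1371150_at) read 0.612, 0.849 and 0.969 in R271W cultures, against 10.7, 8.24 and 4.04 in controls, without overlap. At such signals a fold has little meaning as a size: all 3 R271W values lie below the 20th percentile of all signals, 3.72, and with that value as a floor the log2 difference was -0.93 in place of -3.16. The remaining probe set (1383075_at) read 0.348 to 5.03 in R271W cultures and 0.299 to 4.27 in controls. Ccnd2, the gene of cyclin D2, read 10.9, 2.2 and 8.46 in R271W cultures and 12.8, 16.7 and 9.21 in controls, again with overlap.

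Of the kinases, Cdk4 had a strong signal. It read 2542, 1988 and 2102 in R271W cultures, against 2017, 2017 and 2071 in controls. The first R271W culture stood above the rest and the second below all controls, so the groups overlapped. The log2 change was 0.11 (interval -0.07 to 0.29). After median centring it was -0.09, and without R271W replicate 1 it was 0.01. Cdk6, the related kinase gene, read 13.8, 11.7 and 23.4 in R271W cultures, against 9.62, 5.75 and 2.1 in controls. All 3 R271W values were higher, by 1.67 on the log2 scale or 1.40 with the floor of 3.72, but the mean log2 signal over the 6 arrays was below the filter.

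The region upstream of Cdk4 is shown because it was the only member promoter in which a searched motif was found. It covers chr7:64771203-64771452 of GRCr8 on the plus strand, from RefSeq, with E-box matches in capitals.
Cdk4: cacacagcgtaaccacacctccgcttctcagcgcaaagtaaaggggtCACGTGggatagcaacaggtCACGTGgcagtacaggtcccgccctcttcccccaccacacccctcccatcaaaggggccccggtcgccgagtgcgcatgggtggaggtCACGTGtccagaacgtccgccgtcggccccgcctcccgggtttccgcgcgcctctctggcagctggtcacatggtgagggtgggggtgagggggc
The 3 E-boxes begin 203, 183 and 95 bases before the annotated start. Of the 33469 promoters of this length, 0.0508% (17) held 3 or more. RefSeq promoters were matched for 6 of the 10 members (Ccng2, Ccnd3, Cdk4, Cdkn1b, Cdkn2c and Rb1), and the other 5 held none of the searched letters. A match is a string of letters and no evidence of binding.

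Among the inhibitors, the transcript that fell was that of Cdkn2c, which encodes p18, an INK4 inhibitor of CDK4 and CDK6. Its brighter probe set (1370054_at) read 189, 202 and 191 in R271W cultures, against 283, 263 and 278.5 in control cultures. The groups did not overlap, and the spread within them was small, with a pooled SD of 0.05 on the log2 scale against a median of 0.14 for 2780 tested probe sets within 0.5 of its mean log2 signal. The means were 194 ± 6.50 in R271W cells and 275 ± 10.5 in controls (SD, n = 3 each). The log2 change was -0.50 (interval -0.72 to -0.29), and 8.2% of all tested probe sets had a lower one. The dimmer probe set of the gene (1378711_x_at) read 18.9, 21.2 and 31.4 in R271W cultures, against 20.3, 16.3 and 16.9 in controls, with overlap. Its log2 change of 0.39 (interval -0.47 to 1.25) had the opposite sign. By Affymetrix's naming, the ending _x_at marks a probe set whose probes may also match other transcripts. With the 2 probe sets averaged on the log2 scale, the change was -0.06 and was not called. The brighter probe set alone gave -0.48 to -0.70 over the other 17 settings.

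The promoter of Cdkn2c is shown as that of the member that fell, for chr5:129644892-129645141 of GRCr8 on the minus strand, from RefSeq, searched for the same letters.
Cdkn2c: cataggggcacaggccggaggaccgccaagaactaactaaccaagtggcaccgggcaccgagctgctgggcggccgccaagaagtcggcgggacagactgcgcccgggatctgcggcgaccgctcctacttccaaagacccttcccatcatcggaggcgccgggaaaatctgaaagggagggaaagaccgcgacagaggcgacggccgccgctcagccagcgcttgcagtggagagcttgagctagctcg
It has no capitals, and 65.2% of its bases are G or C, against 57.2% in the Ccng2 window and 66.8% in that of Cdk4.

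The CIP/KIP inhibitor genes among the members, Cdkn1b and Cdkn1c, were both dim. Cdkn1b, which encodes p27, read 19.7, 7.17 and 8.38 in R271W cultures and 10.6, 3.62 and 6.23 in controls on its brighter probe set (1373812_at). The other (1369192_at) read 10.5, 0.752 and 10.96 in R271W cultures and 4.51, 7.32 and 0.434 in controls. Both sets of values overlapped between the groups, and replicates of 1 group differed by more than the group means did. Cdkn1c, which encodes p57, read 4.29, 8.69 and 4.19 in R271W cultures and 1.77, 2.7 and 16.2 in controls, where a single control culture set the mean.

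Rb1, which encodes RB itself, read 108, 105 and 75.04 in R271W cultures, against 81.3, 55.7 and 82.3 in controls. R271W replicates 1 and 2 were above all controls and replicate 3 was among them. The means were 95.9 ± 18.1 in R271W cells and 73.1 ± 15.1 in controls (SD, n = 3 each). The log2 change was 0.40 (interval -0.04 to 0.83). Within-group scatter was 0.31 on the log2 scale, against a median of 0.22 for 3575 tested probe sets of like signal.

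Geometric mean signals of the 8 probe sets below it ran from 1.01 to 8.71 (Cdk6), and the dimmest one above it was the _x_at probe set of Cdkn2c at 20.3. MAS5 detection calls were not used here, so a dim signal cannot be read as an absent transcript.

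**Figure D3:**
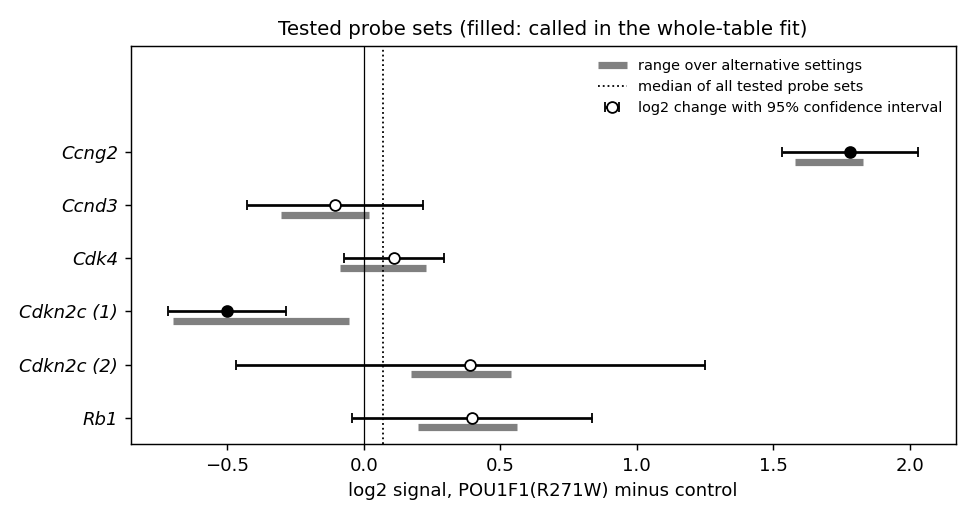
Log2 change, R271W minus control, of the 6 tested probe sets with 95% confidence intervals (black), filled where the fit over all tested probe sets called it, as a description, and the range over other settings below each (grey). Ccng2 lies far to the right of 0 at 1.78, and the brighter Cdkn2c probe set lies below 0, with the right end of its grey range (-0.06) set by averaging its 2 probe sets.

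Other genes of the pathway were read from 8 lists, 1 probe set per gene. The lists, too, were chosen with earlier results of these data known, so their calls and p-values are a description. Of 82 genes tested outside the members, 5 were higher in R271W cells and 7 lower, and the median log2 change was -0.02, against 0.06 over all 10143 genes. After median centring 2 of them were higher and 19 lower, and after centring on the 75th percentile 2 and 12. With the deposited scaling, 6.1% of the 82 were higher and 8.54% lower, against 9.87% and 8.98% of all genes. In either direction it was 14.6%, against 18.9% of all genes. No list had more than 4 calls, and the lists for E2F targets, for protein turnover and for FOXO targets each had calls in both directions. Each list is short, and its counts below are to be read beside the shares of all genes.

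In the list of G-type and atypical cyclins 1 of 7 genes rose and 0 fell. Ccni, which encodes cyclin I, a cyclin-box protein related to the G cyclins, read 788, 728 and 771 in R271W cultures against 522, 499 and 506.6 in controls. That is a log2 change of 0.58 (limma adjusted p = 0.000223), and the gene's other probe set gave 0.25 without passing. Ccng1, the gene of cyclin G1 and a p53 target, read 1230, 1121 and 1129 in R271W cultures against 1270, 1255 and 1344 in controls. Its log2 change of -0.15 (interval -0.31 to 0.00) did not pass (limma adjusted p = 0.171). No test of the difference between Ccng2 and these genes was run.

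FOXO factors are the best known activators of Ccng2. Of 3 tested factor genes 1 fell and 0 rose. Foxo1 read 109, 119 and 111 in R271W cultures against 199.8, 239.9 and 213 in controls, without overlap, with a log2 change of -0.94 (interval -1.21 to -0.68, limma adjusted p = 0.000195). Its other probe sets read -0.18 without passing and 1.17 below the filter. Foxo3 had a log2 change of 0.13 (limma adjusted p = 0.495) and Foxo4 of -0.45 (limma adjusted p = 0.278). Of 17 tested genes known as FOXO targets, 2 rose and 2 fell, with a median log2 change of 0.02. Among all genes, 9.87% rose and 8.98% fell. Sesn1, a stress-induced sestrin gene, had a log2 change of 0.42 (limma adjusted p = 0.047) and Txnip, which encodes an inhibitor of thioredoxin, of 0.43 (limma adjusted p = 0.0421). Bnip3, a mitophagy receptor gene, had -0.26 (limma adjusted p = 0.0221) and Cited2, a transcriptional co-regulator gene, -0.28 (limma adjusted p = 0.0356). Each of these 4 calls ended when some single arrays were left out. For Sesn1 that held for every array but R271W replicate 3 (adjusted p 0.101 to 0.169), for Txnip for every array but control replicate 1 (0.0762 to 0.168) and for Cited2 for every array but R271W replicate 3 (0.0574 to 0.132). For Bnip3 it held for R271W replicate 2 and each control (0.0562 to 0.0921). None of the 4 passed under quantile normalization (0.0673 to 0.168), without the intensity trend (0.144 to 0.173) or with the replicate number as a block (0.0502 to 0.0693). Sesn1 and Txnip also did not pass after median centring (0.26 and 0.265) or 75th percentile centring (0.0929 and 0.096), nor Sesn1 and Cited2 with no filter (0.0571 and 0.0504).

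Partners and relatives of the inhibitors and of RB were measured as well. Of 6 tested genes in the list of other CDK inhibitors and pocket proteins, 1 rose and 0 fell. The INK4 genes Cdkn2a, Cdkn2b and Cdkn2d had log2 changes of -0.02, -0.30 and -0.25, none of which passed, with Cdkn2d at 236, 250.4 and 219 in R271W cultures and 295, 261 and 283 in controls. Cdkn1a, which encodes p21, had a log2 change of 0.20 and did not pass. Rbl1, which encodes the RB relative p107, read 93.1, 96.0 and 115 in R271W cultures against 57.6, 73.7 and 67.2 in controls, a log2 change of 0.62 (limma adjusted p = 0.0261). That call ended without R271W replicate 2 (0.0564) or 3 (0.09) or control replicate 1 (0.0921) or 3 (0.0576), under each of the 3 other scalings (0.0526 to 0.118) and without the intensity trend (0.0664). Rbl2, the gene of the remaining pocket protein p130, had a log2 change of 0.15 and did not pass.

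Downstream of RB, none of 9 tested genes of E2F factors and their DP partners passed by limma. Their log2 changes were -0.03 for E2f1, 0.46 for E2f2, 0.13 for E2f4, -0.03 for E2f5, -0.32 for E2f6, -0.06 for E2f7 and 0.26 for E2f8, with -0.10 for Tfdp1 and 0.01 for Tfdp2. At an unadjusted p under 0.05 there was 1, E2f6, and without the intensity trend 0 passed after adjustment. In the fit with the trend, 18.9% of all genes passed in either direction. E2f6, a repressor of the family, passed under median centring (limma adjusted p = 0.0106) and 75th percentile centring (0.0399), and Tfdp1 under median centring (0.0275). Of 21 tested E2F target genes, 1 rose and 3 fell, with a median log2 change of -0.03. Rbl1 is the one that rose. Ccne2, the gene of cyclin E2, which activates CDK2 at the entry into S phase, read 122, 101 and 98.2 in R271W cultures against 151, 175 and 163 in controls. Its log2 change was -0.61 (limma adjusted p = 0.00839, or 0.0547 without the intensity trend), with 0.23 on a dimmer probe set that did not pass. It was also the single gene called among 11 of the E, A and B cyclins with their kinases. Mcm6 and Mcm4, subunits of the replicative helicase, had log2 changes of -0.45 (limma adjusted p = 0.0207) and -0.32 (limma adjusted p = 0.0444). The call of Mcm6 ended without R271W replicate 2 (0.0534), control replicate 2 (0.0731) or control replicate 3 (0.0762), under quantile normalization (0.1) and without the intensity trend (0.181). That of Mcm4 ended without any 1 array but R271W replicate 3 (0.0842 to 0.145), with no filter (0.0568), without the trend (0.151) and with the replicate number as a block (0.0694).

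Levels of D cyclins and p27 are also set by protein breakdown, which RNA does not show. Among 14 tested genes of that machinery 1 rose and 1 fell, with a median log2 change of -0.03. Cul4a, a cullin scaffold of ubiquitin ligases, read 312, 390.5 and 412 in R271W cultures against 221, 207 and 208 in controls, a log2 change of 0.80 (limma adjusted p = 0.000406). Cops5, a subunit of the COP9 signalosome that binds p27 and promotes its export and breakdown, read 775.5, 766 and 814 in R271W cultures against 998, 1097 and 1009 in controls. Its log2 change was -0.40 (limma adjusted p = 0.00258, or 0.072 without the intensity trend). Groups did not overlap for either gene.

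**Figure D4:**
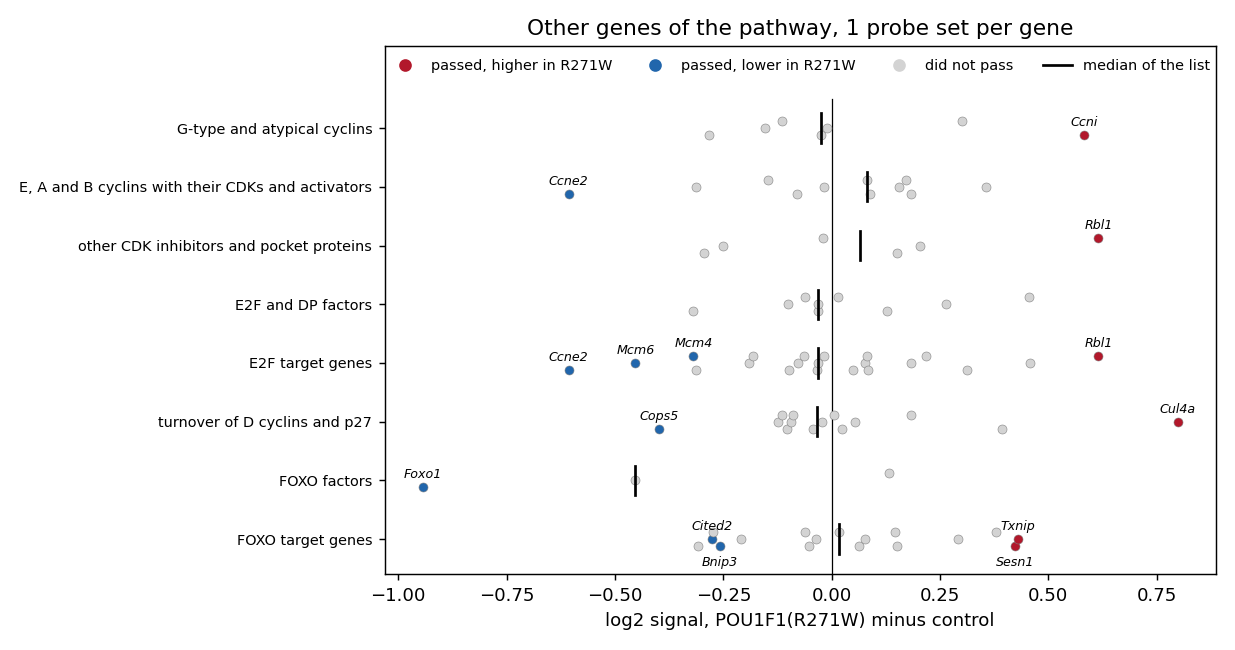
Log2 change, R271W minus control, of every tested gene in the 8 pathway lists, with 1 point per gene at its brightest probe set, red where higher and blue where lower among those that passed over all tested probe sets, and a black bar at each list's median. A gene in 2 lists appears in both. The list medians lie between -0.03 and 0.08, except that of the 3 FOXO factor genes at -0.45.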

How the data were processed

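The authors' deposited values are intensity values, MAS5 signals per probe set on a linear scale, per the submitters' processing notes. For MAS5, neither version nor background settings nor detection calls were given in the sources used here. The trimmed mean (2% off each end) of every array was about 100, so the arrays had been scaled, which ties dim signals to bright ones. Symbols came from a platform annotation table, checked by Entrez ID against RefSeq (GRCr8). Of 31042 non-control probe sets 20826 had 1 symbol, 436 several and 9780 none.

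Signals were converted to log2 and fitted with limma 3.58.1 in R 4.3.3 (lmFit on the group alone, then eBayes with a trend on intensity, two-sided). P-values were adjusted by Benjamini-Hochberg over the 18625 probe sets at or above the 40th percentile of mean log2 signal. A gene was read by its brightest probe set. The fit was tested on simulated data. It called 9 of 98 probe sets shifted by 0.5 on the log2 scale and 41 of 96 shifted by 1, each with the right sign. Changes of such sizes were thus often missed there. Fewer probe sets were shifted there than were called in these data, so these shares need not carry over. Promoter sequences came from RefSeq and figures from matplotlib 3.10.9 in Python 3.11.15.

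The members, gene lists and tests were chosen with earlier results of these data known. Named were all member probe sets, every called list gene, all FOXO, E2F and DP genes, and the 5 genes nearest to Ccng2. A few other list genes (Ccng1, Rbl2 and the other inhibitors) were named after their values were seen. List genes with no single-symbol probe set were not used here.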

Additional observations from a re-analysis of the deposited data

How the results depend on the processing

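The fit was repeated with 3 other scalings (quantile, median and 75th percentile), 2 other filters (none, 60th percentile), a floor or an offset of 3.72, robust eBayes, eBayes with no trend, weights per array, a replicate block, and without each array in turn. Under all of them 1 member probe set was called higher and 1 lower, a description, since members were chosen on this contrast. Averaging the 2 Cdkn2c probe sets gave -0.06, and the gene was then not called. Over all probe sets, 1596 calls higher became 730 with median centring and 634 without the trend, and 999 to 1350 without single arrays. The 1344 lower became 3132, 431 and 947 to 1330 in the same order. Of list genes, the 5 higher became 2 with quantile normalization, median centring, 75th percentile centring or no trend and 2 to 3 without single arrays. The 7 lower became 4 with quantile normalization, 19 with median centring, 12 with 75th percentile centring, 1 without the trend and 3 to 8 without single arrays. With the replicate block they were 3 higher and 4 lower. Same-numbered arrays of the 2 groups did not deviate together (correlations of -0.00165, 0.0101 and -0.0201), so the numbers were not read as pairs. Why counts moved was not tested. By construction, centring shifts every gene, and leaving out an array makes a group smaller. With 3 arrays per group and no detection calls, changes of dim genes such as Ccnd1, Ccnd2, Cdk6, Cdkn1b and Cdkn1c cannot be sized.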
